A study of Mus musculus with 36 samples.

Results

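The effect of a 40% high-fat diet (HFD) on epididymal white adipose tissue (eWAT) was examined in wild-type (WT) mice without a ligature, by comparing the 3 RNA-seq libraries of WT mice fed a 40% HFD with the 3 of WT mice fed a normal diet (ND). These 6 libraries were chosen by their labels out of the 36 of the series, which covers WT and CCL19-KI mice, 3 diets, and mice with or without ligature-induced periodontitis. All 6 mice were male C57BL/6 mice. They were fed an ND until the age of 6 weeks and then an ND or a 40% HFD for 10 weeks, up to the age of 16 weeks. None of the 6 labels names a ligature, whereas the text of the study speaks of RNA-seq in ligatured mice. The labels were followed. The CCL19-KI mice carry *Ccl19* in the *Adipoq* locus, whose promoter is active in adipocytes, and the WT mice were bred separately from them. The CCL19-KI libraries without ligature are in the same fit as the WT libraries and share its estimate of the spread and its filter on low values. The study describes eWAT collected per ligatured mouse. For these 6 libraries no source used here says whether tissue of several mice was pooled, so the p-values measure the spread between libraries. For a single gene, the smallest p of an exact permutation test (two-sided) with these group sizes is 0.1, and the tests below are therefore model-based.

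White adipocytes store fatty acids as triglyceride and make part of them from glucose (de novo lipogenesis). A diet rich in fat is known to lower the expression of the lipogenic enzymes in fat tissue and to bring in macrophages as the depot grows. eWAT lies against the epididymis and the testis and within reach of the abdominal organs, and is covered by mesothelial cells, so that markers of these tissues were followed in each library.

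The 6 libraries held 14693883 to 19786434 reads, with a median of 18491816 in the ND group and of 15800814 in the 40% HFD group. Expression is given as normalized CPM, the reads of a gene relative to the depth of its library as scaled by the authors with edgeR. A single read was worth 0.050 to 0.0758 normalized CPM. A level listed at 0 allows a true level of up to 0.150 to 0.227 (3 reads, counting error only). The defining adipocyte markers were high in all 6 mice, for example *Adipoq* at 615 to 3115 normalized CPM. In 3 mice against 3 of whole tissue, fewer cells of a type and less RNA per cell cannot be told apart.

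ND replicate 2 stood apart from its group. *Ccl19* was at 19.2 normalized CPM in it, against 4.51 and 1.15 in ND replicates 1 and 3. *Gm2564* was at 41.9 in it and at 0 in the other 5 mice, and over the 15 WT libraries outside the ND group it did not exceed 0.160. In the 18 CCL19-KI libraries *Gm2564* had a median of 39.5. The library labelled ND replicate 2 thus held the levels of knock-in mice. It also held 5722 normalized CPM of *Gpx5* and 1532 of *Crisp1*, secretory proteins of the epididymal epithelium, against at most 2.70 of *Gpx5* in the other 5 mice. For the comparison of the 40% HFD with the ND, counts of calls, medians of lists and the genes past the adjusted p are therefore given also without ND replicate 2.

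The diets were compared by limma on the log2(normalized CPM + 1) scale. The fit held the 18 libraries without ligature (12 residual degrees of freedom) and the 16923 genes that reached 1 normalized CPM in 3 or more of them. A gene is said to have risen or fallen if its Benjamini-Hochberg adjusted p was below 0.05. A DEG is a gene with an unadjusted limma p up to the threshold of 0.05 and a ratio ≥ 1.5 or ≤ 0.67. These thresholds follow the methods of the study, where edgeR supplied the p. Fold changes on this scale understate the change of genes with few reads. Under the 40% HFD, 416 genes rose (2.46% of those tested) and 35 fell (0.207%). DEGs numbered 1415 higher (8.36%) and 823 lower (4.86%). The 2 groups did not overlap, higher in the 40% HFD group, for 1891 genes (11.2%), and lower for 1625 (9.60%). Without ND replicate 2, 297 genes rose (1.78% of 16702) and 44 fell (0.263%), and DEGs numbered 1440 higher (8.62%) and 1015 lower (6.08%). Of the genes that rose, 270 rose in both analyses, and of the 35 that fell, 13 did, while 4 of the 35 were not tested without ND replicate 2. The median log2 fold change of all genes tested was −0.05, and −0.15 after quantile normalization, so that changes near this size carry no direction.

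**Figure D1:**
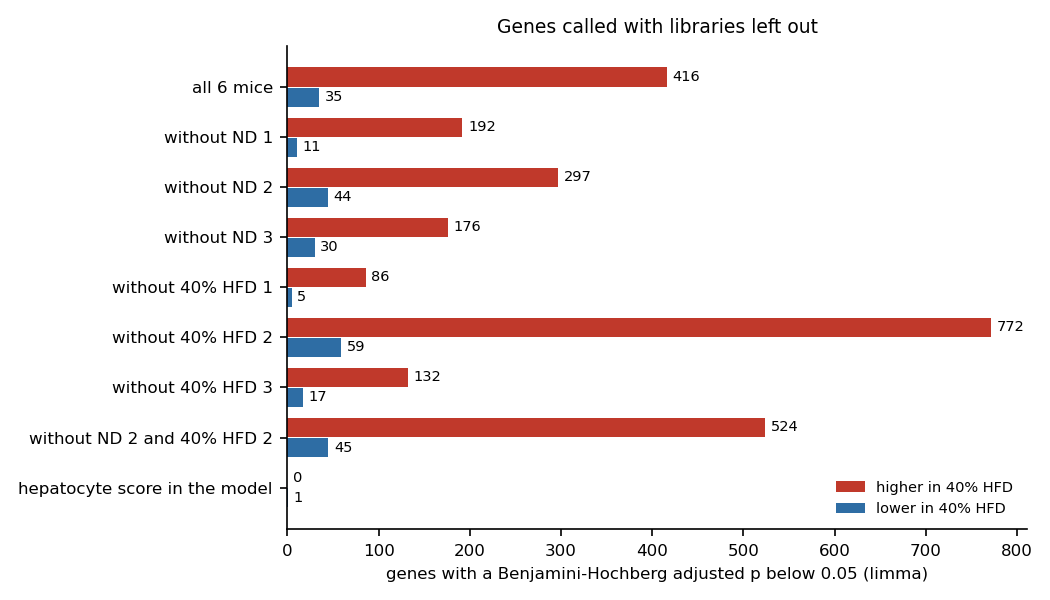
The number of genes with an adjusted p below 0.05 in limma (horizontal axis), higher (red) or lower (blue) in WT mice fed a 40% HFD, with all 6 mice, with libraries left out, and with the mean log2 level of the hepatocyte genes of each library as a term in the model. The number of rises ranged from 86 without 40% HFD replicate 1 to 772 without 40% HFD replicate 2, and was 0 with the hepatocyte term.

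The count rested on single libraries. It was 91 in all without 40% HFD replicate 1, 149 without replicate 3 and 831 without replicate 2, and 203 and 206 without ND replicates 1 and 3. With the mean level of the hepatocyte genes of each library as a covariate, an alternative chosen after seeing the data, 0 genes rose and 1 fell, the apolipoprotein gene *Apoa4*. This level alone separated both groups (1.64 to 1.73 against 8.87 to 10.8), so that the diet and the hepatocyte level cannot be told apart in these 6 mice.

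The largest rises were those of liver genes. All 20 genes of a hepatocyte list were DEGs and 18 rose, with a median log2 fold change of 9.08, and of 9.14 without ND replicate 2. *Alb*, the gene for serum albumin, was at 5.55, 7.85 and 13.4 normalized CPM in ND replicates 1 to 3 and at 17711, 5009 and 19185 in the 40% HFD mice. Every 40% HFD mouse was above every ND mouse, and 40% HFD replicate 2 was the lowest of the 3. Its log2 fold change was 10.31 ± 1.57 (SE; adjusted p = 0.005, n = 3 per group; limma), and 10.26 without ND replicate 2 (adjusted p = 0.024). *Apob*, which encodes the protein of very-low-density lipoprotein, was at 0.979, 0.668 and 0.450 in the ND mice and at 6484, 1679 and 6656 in the 40% HFD mice. *Cyp3a11*, a cytochrome P450 of drug metabolism, was at 0, 0.111 and 0 in the ND mice and at 1050, 318 and 1754 in the 40% HFD mice. *Cyp7a1*, the rate-limiting enzyme of bile acid synthesis, was at 0 in all 3 ND mice and at 56.0, 7.40 and 34.7 in the 40% HFD mice, at least 204-fold higher (3 reads per ND library taken as the limit). *Hsd3b5*, a steroid dehydrogenase of the male mouse liver, was at 0 in all 3 ND mice and at least 285-fold higher in the 40% HFD mice. These 4 genes rose also without ND replicate 2, with adjusted p of 0.024 for *Apob*, *Cyp3a11* and *Hsd3b5* and 0.043 for *Cyp7a1*.

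The promoter of *Alb* is shown because the liver genes moved together over a wide range. It is given on the plus strand of chr5:90460620-90460919 (GRCm38.p6, RefSeq), 5′ to 3′, from 250 bases before the transcription start, with the letters GTTAAT, a part of the site that the liver factor HNF1 binds, in capitals.
Alb: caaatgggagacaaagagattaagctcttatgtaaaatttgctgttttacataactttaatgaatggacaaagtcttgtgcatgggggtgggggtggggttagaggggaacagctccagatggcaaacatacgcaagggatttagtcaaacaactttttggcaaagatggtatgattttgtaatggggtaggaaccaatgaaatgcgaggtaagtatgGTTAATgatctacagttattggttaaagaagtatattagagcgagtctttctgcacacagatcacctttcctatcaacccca
Of the 20 hepatocyte genes, the promoters of 15 were searched, and 5 of the 15 held GTTAAT on either strand, against 7.1% of all 32851 promoters of the same length. The TATA box letters TATAAA were in 4 of the 15, against 13.6% of all promoters. A match is only a description of the letters.

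Major urinary proteins (MUPs), pheromone carriers made by the male mouse liver, rose with them. Of the 18 MUP genes tested, 17 rose, with a median log2 fold change of 8.50 (15 and 8.47 without ND replicate 2). *Mup7* was at 0.163, 0.111 and 0 normalized CPM in the ND mice and at 4931, 1965 and 7196 in the 40% HFD mice, a log2 fold change of 11.88 ± 1.10 (SE; adjusted p = 0.00015, n = 3 per group; limma), with an adjusted p of 0.0048 without ND replicate 2. *Mup20*, the gene of the male pheromone darcin, was at 0.435, 0.111 and 0.050 in the ND mice and at 1027, 508 and 2431 in the 40% HFD mice. The MUP genes are near-identical copies, and how their reads were shared among them is uncertain. The 15 largest rises that met the naming rule had log2 fold changes of 9.84 to 11.88, and *Mup7*, *Apob*, *Mup19*, *Mup11*, *Serpina1c*, *Mup14*, *Mup15*, *Serpina1e*, *Alb*, *Mup22*, *Mug1*, *Mat1a*, *Mup3* and *Mup20* were among them. Beside MUPs, these encode protease inhibitors of plasma (*Serpina1c*, *Serpina1e*, *Mug1*) and a liver enzyme of methionine metabolism (*Mat1a*).

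The hepatocyte genes differed between the 40% HFD mice by a common factor only in part. The ratio of replicate 2 to replicate 1 ranged from 0.110 to 0.621 over the 20 genes, with a median of 0.283, and the ratio of replicate 2 to replicate 3 from 0.174 to 0.551, with a median of 0.253. The mean log2 level of the list was 1.64 to 1.73 in the ND mice and 8.87 to 10.8 in the 40% HFD mice. The list took 0.146 to 0.446% of the reads in the ND mice and 1.89 to 5.03% in the 40% HFD mice. To see how much of the comparison moved with these genes, each gene was correlated with the mean level of the list over the 30 other libraries of the series, a description with no test, chosen after seeing the data. These libraries share their tissue and differ in diet, genotype and ligature. Of the 16923 genes tested, 673 (3.98%) had an r above 0.8, but of the 416 that rose 345 (82.9%) did, and of the 35 that fell, 0 did. The 673 genes took 2.08 to 2.51% of the reads in the ND mice and 23.7, 7.29 and 18.3% in 40% HFD replicates 1, 2 and 3.

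The low level of the liver genes was that of the ND mice of this comparison and not of ND mice in general. *Alb* was below 20 normalized CPM in 6 of the 36 libraries: the 3 ND mice here, CCL19-KI ND replicates 2 and 3 with ligature, and CCL19-KI 60% HFD replicate 3 without ligature. In the other 30 it was at least 267. In ligatured WT mice fed an ND it was at 4731, 5423 and 718, and without ligature in CCL19-KI mice on an ND at 397, 11700 and 13696. The plot of marker lists shows this for the WT groups.

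**Figure D2:**
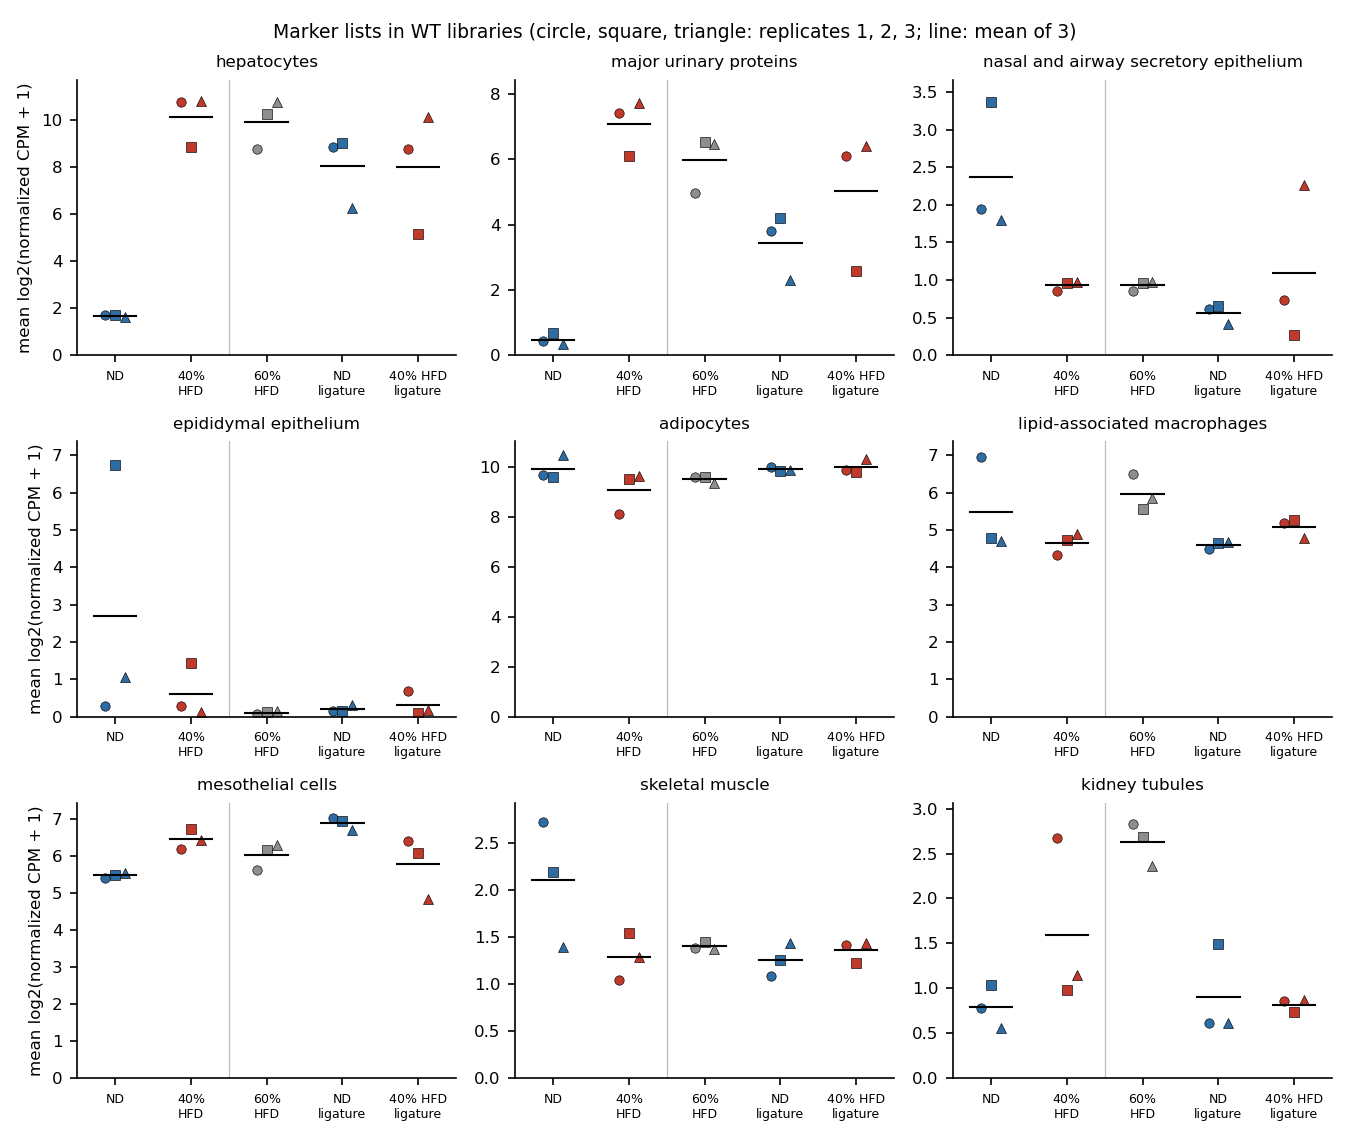
Mean log2(normalized CPM + 1) of 9 gene lists (vertical axes, each with its own range from 0) in the 15 WT libraries of 5 groups, ND in blue, 40% HFD in red and 60% HFD in grey, with symbols for replicates 1 to 3 and a line at the mean of 3. The hepatocyte list was at 1.64 to 1.73 in the ND mice without ligature and at 5.15 or more in all other WT mice shown, and the epididymal list was highest in ND replicate 2, at 6.76.

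Genes of fatty acid oxidation were mostly higher, and single members of other pathway lists rose. Of 28 genes of fatty acid oxidation, 13 were DEGs, all higher, and 2 rose, with a median log2 fold change of 0.87. The peroxisomal thioesterase gene *Acot3* rose from at most 0.111 to 133, 5.28 and 19.0 normalized CPM, with an r of 0.89 with the hepatocyte list. *Cpt1a*, which admits long-chain fatty acids to mitochondria, was at 205, 199 and 167 against 421, 246 and 441 (log2 fold change 0.91, adjusted p = 0.22), with an r of 0.78. Without ND replicate 2, 8 of the 28 were DEGs, all higher, and 0 rose in limma (median 0.73; adjusted p = 0.077 for *Acot3*). Among 20 complement genes 7 were DEGs, all higher, with a median of 0.30 (6 and 0.49 without ND replicate 2). In both analyses 1 rose, *Cfi*, which encodes a protease of complement control (1.85, 1.73 and 0.350 against 147, 40.5 and 146; r = 0.96). *C3*, the central complement component, was at 3299, 1254 and 1737 against 8181, 4501 and 5257 (adjusted p = 0.14; r = 0.53). The rises in 4 other lists were likewise of genes with an r of 0.87 or more: *Cideb* (lipid droplets), *Cpn2* and *Elovl3* (in the thermogenic list), *Arg1* (cytokines and macrophage enzymes) and *Prox1* (in the endothelial list, also a liver gene). *Cpn2* rose also without ND replicate 2 (adjusted p = 0.032), where the adjusted p was 0.069 for *Cideb* and for *Arg1*, 0.083 for *Elovl3* and 0.058 for *Prox1*.

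The largest falls were of genes of the nasal and airway lining. *Muc5b*, a gel-forming mucin of the airways, was at 29.5, 425 and 8.85 normalized CPM in ND replicates 1 to 3 and at 0, 0.0644 and 0.0758 in the 40% HFD mice. It fell by 5.59 ± 1.10 on the log2 scale (SE; adjusted p = 0.012, n = 3 per group; limma), and by 4.05 without ND replicate 2 (adjusted p = 0.034). *Bpifa1*, a secreted protein of the upper airway, was at 21.8, 77.5 and 9.20 in the ND mice and at 0.0751, 0 and 0 in the 40% HFD mice. *Reg3g*, an antibacterial lectin, was at 4.24, 11.0 and 3.80 against 0 in all 3 (at least 29.4-fold lower), and the airway mucin *Muc5ac* at 6.91, 3.23 and 4.55 against 0 in all 3 (at least 22.7-fold lower). All 3 ND mice were above all 40% HFD mice for these genes, and ND replicate 2 was the highest except for *Muc5ac*. Of the 18 libraries in the fit, only the 3 ND mice reached 1 normalized CPM of *Bpifa1*, *Reg3g* and *Muc5ac*. These genes thus passed the filter on low values only through the group in which they were high, and a call for them is a description only. *Muc5b* reached 1 in the 3 ND mice and, of the other libraries in the fit, in CCL19-KI ND replicate 3 (15.9). It too would not have passed the filter without the ND mice, so its fall is a description only. Without ND replicate 2, *Bpifa1*, *Reg3g* and *Muc5ac* did not pass the filter and were not tested. *Muc5b* then passed with ND replicates 1 and 3 and CCL19-KI ND replicate 3. In a list of this epithelium, put together after the values were seen and given with no test of the list, 10 of 15 genes were tested. Of these, 5 fell and 1, *Pigr*, rose (r = 0.98 with the hepatocyte list). Without ND replicate 2, where *Bpifa1*, *Reg3g* and *Muc5ac* were not tested, 2 fell. *Omp*, the marker of olfactory neurons, was at 2.99, 95.2 and 1.5 against 0.150, 0.451 and 0.379 (adjusted p = 0.15).

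These airway genes also marked libraries outside the comparison. In the 6 libraries with *Alb* below 20, *Bpifa1* was at 9.20 to 81.7 normalized CPM in 5 and at 0.932 in CCL19-KI 60% HFD replicate 3, where *Muc5b* was at 0.393. Of the other 30 libraries, 27 had at most 0.212 of *Bpifa1*. The remaining 3 were WT 40% HFD replicate 3, CCL19-KI 40% HFD replicate 3 and CCL19-KI 60% HFD replicate 1, all ligatured, at 5.86, 9.65 and 19.0. Among the 15 WT libraries outside the ND group, *Muc5b* was below 1 in 13, and among the 18 CCL19-KI libraries in 12. It was also high in libraries with high *Alb*. In CCL19-KI ND replicate 3 without ligature *Muc5b* was at 15.9, with *Bpifa1* at 0 and *Alb* at 13696.

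Markers of other tissues differed widely between libraries of the same group. The epididymal list had a median log2 fold change of −2.05 over 12 genes and of 0.01 without ND replicate 2. *Crisp1* was at 2.83, 1532 and 58.3 normalized CPM in the ND mice and at 1.2, 1457 and 0.0758 in the 40% HFD mice, so that 40% HFD replicate 2 was also high. Germ cell genes had a median of −1.34, with a lower mean for 15 of 15 and 1 lower DEG (−1.61 and 1 without ND replicate 2), and *Prm1*, the sperm protamine, was highest in ND replicate 3 at 35.1. Of 12 skeletal muscle genes 4 were lower DEGs and 1 fell (2 and 0 without ND replicate 2; median −0.97 and −0.38). This was *Ttn*, the giant sarcomere protein, at 78.9, 14.4 and 7.50 against 2.33, 2.70 and 1.59 (log2 fold change −2.78, adjusted p = 0.032; 0.051 without ND replicate 2). Of 16 smooth muscle and mural genes 3 were lower DEGs and 1 fell, *Kcnj8*, a potassium channel of pericytes (6.04, 7.96 and 7.00 against 3.08, 3.60 and 3.64; adjusted p = 0.033, and 0.10 without ND replicate 2), and the median went from −0.81 to 0.05 without ND replicate 2. Kidney tubule genes had 3 higher DEGs of 14 (median 0.86; 2 and 0.98 without ND replicate 2), and were highest in 40% HFD replicate 1, where the androgen-regulated *Kap* was at 109 (1.03 and 6.90 in replicates 2 and 3). Of 12 exocrine pancreas genes 0 were DEGs in either analysis (medians 0.68 and 0.66). Of 9 neuron and Schwann cell genes 3 were lower DEGs (median −0.67; 2 and −0.46 without ND replicate 2).

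In cholesterol synthesis 2 genes fell. Of the 25 genes of the list 6 were lower DEGs and 3 were higher DEGs (median log2 fold change −0.36). Leaving out ND replicate 2, 7 were lower DEGs, 2 were higher DEGs and 2 fell, *Mvk* and *Pmvk* (median −0.38). *Nsdhl*, a sterol dehydrogenase of the late pathway, was at 72.7, 54.5 and 48.3 normalized CPM in the ND mice and at 12.2, 15.2 and 23.7 in the 40% HFD mice, with no overlap. It fell by 1.75 ± 0.40 on the log2 scale (SE; adjusted p = 0.031, n = 3 per group; limma), with an adjusted p of 0.070 without ND replicate 2. *Mvk*, mevalonate kinase, was at 36.0, 21.0 and 28.0 against 10.8, 12.6 and 13.6, and fell by 1.11 ± 0.27 (adjusted p = 0.037), and by 1.3 without ND replicate 2 (adjusted p = 0.037). *Mvd*, which acts 2 steps later in the same branch, was at 10.2, 8.29 and 6.00 against 3.68, 2.96 and 4.70 (adjusted p = 0.056). *Stard4*, a sterol carrier, was among the higher DEGs (r = 0.55 with the hepatocyte list).

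The promoters of the 2 genes that fell are shown because genes of this pathway are known to share CCAAT boxes. Each is given on the plus strand, 5′ to 3′, from 250 bases before the transcription start (GRCm38.p6, RefSeq), with CCAAT or its complement ATTGG in capitals, *Nsdhl* from chrX:72918271-72918570 and *Mvk* from chr5:114444019-114444318.
Nsdhl: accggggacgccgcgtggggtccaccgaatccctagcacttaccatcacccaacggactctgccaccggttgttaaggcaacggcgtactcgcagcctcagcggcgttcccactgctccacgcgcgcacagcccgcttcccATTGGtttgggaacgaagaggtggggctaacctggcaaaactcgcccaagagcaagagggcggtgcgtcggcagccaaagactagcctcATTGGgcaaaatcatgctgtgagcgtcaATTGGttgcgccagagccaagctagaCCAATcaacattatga
Mvk: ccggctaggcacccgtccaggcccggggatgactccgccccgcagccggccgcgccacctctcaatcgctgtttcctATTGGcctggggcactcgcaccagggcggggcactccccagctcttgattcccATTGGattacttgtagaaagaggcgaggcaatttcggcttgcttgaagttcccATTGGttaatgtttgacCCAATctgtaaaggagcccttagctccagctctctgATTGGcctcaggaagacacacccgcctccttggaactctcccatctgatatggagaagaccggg
*Nsdhl* held 4 matches and *Mvk* 5. CCAAT was found on either strand in 15 of the 17 cholesterol genes whose promoters were searched, against 37.4% of all promoters. The sterol regulatory element letters TCACNCCAC were in 1 of the 17, against 1.24%. Each of these lists was searched for its own 2 motifs only.

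De novo lipogenesis genes were mostly lower, but 0 of 20 passed the adjusted p in limma, with 10 DEGs (7 lower and 3 higher) and a median log2 fold change of −1.06. Without ND replicate 2 the median was −1.23, 9 were lower DEGs, 2 were higher DEGs and 1 fell, *Acss2*, which makes acetyl-CoA from acetate (adjusted p = 0.030). *Fasn*, fatty acid synthase, was at 2658, 1394 and 7229 normalized CPM in the ND mice and at 310, 614 and 1221 in the 40% HFD mice. The groups did not overlap, and the mean was 5.26-fold lower, with an adjusted p of 0.13. *Scd2*, a fatty acid desaturase, was at 987, 550 and 416 against 35.7, 185 and 124 (5.66-fold lower, adjusted p = 0.082). *Acly*, which makes cytosolic acetyl-CoA from citrate, was at 388, 477 and 622 against 219, 175 and 181 (2.58-fold lower, adjusted p = 0.062). *Scd1*, the most abundant desaturase, was at 25198, 29027 and 24357 against 9927, 35005 and 36813, and the groups overlapped. The 3 higher DEGs were *Mlxipl*, *Elovl5* and *Fads2*, with r of 0.80, 0.83 and 0.30.

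**Figure D3:**
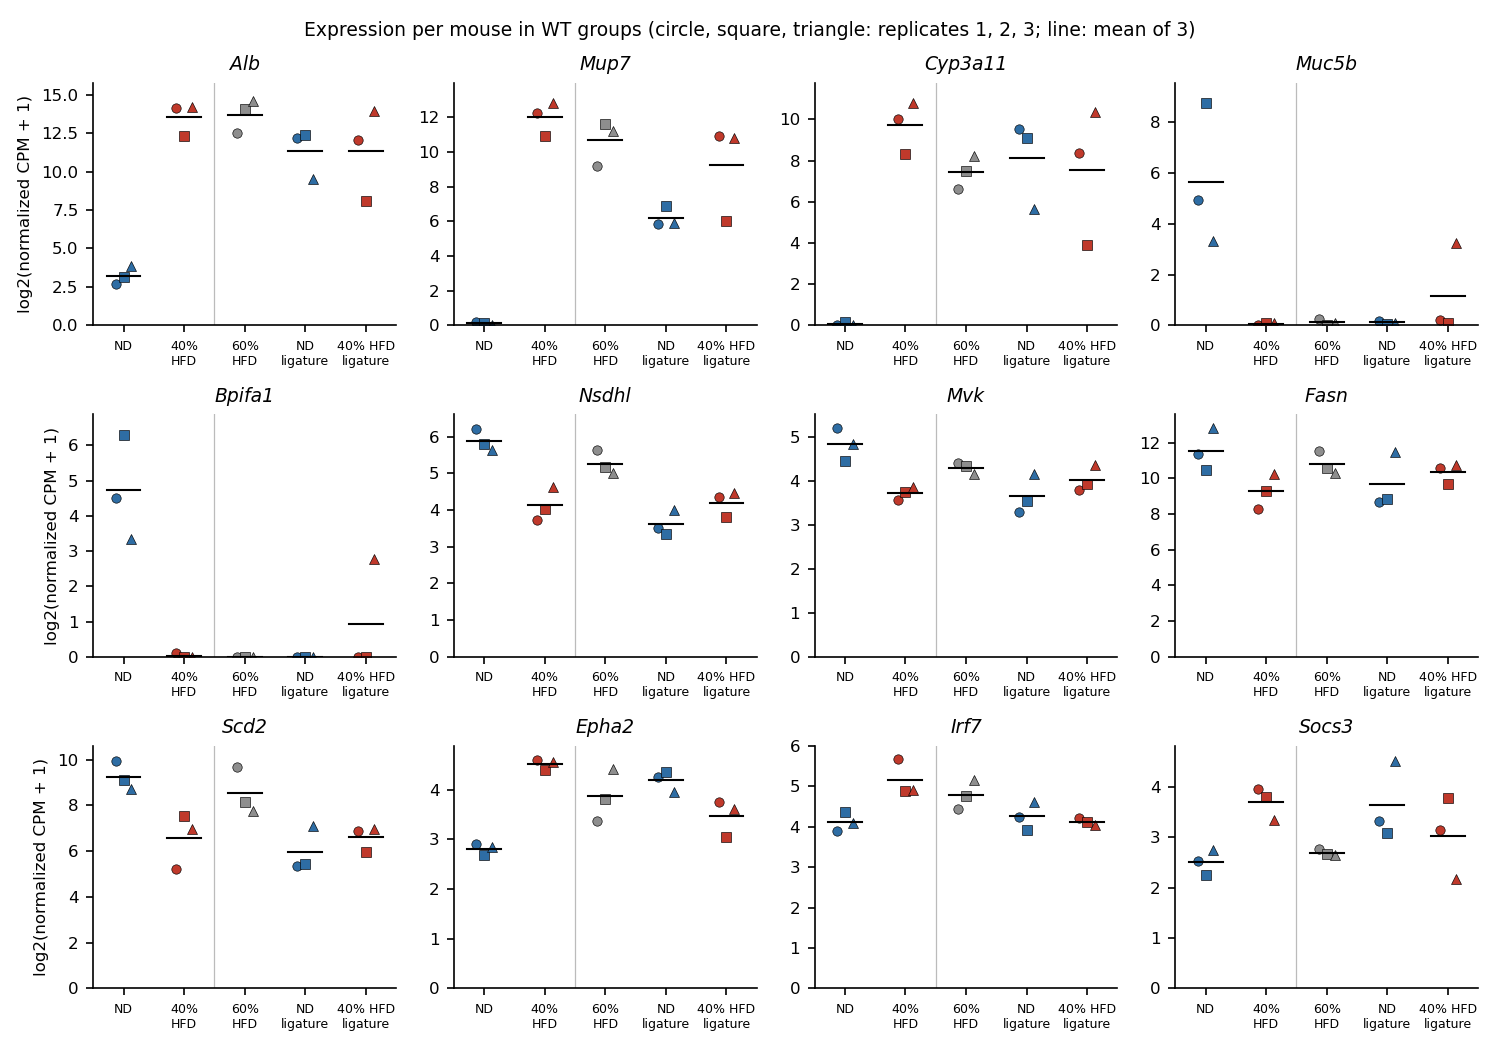
Log2(normalized CPM + 1) of 12 genes (vertical axes, each from 0) in the 15 WT libraries of 5 groups, with symbols for replicates 1 to 3 and a line at the mean of 3. In the 2 groups left of the grey line, *Alb*, *Mup7*, *Cyp3a11*, *Epha2*, *Irf7* and *Socs3* were higher in every 40% HFD mouse than in every ND mouse, and *Muc5b*, *Bpifa1*, *Nsdhl*, *Mvk*, *Fasn* and *Scd2* lower.

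A single gene of triglyceride synthesis fell. *Mogat2*, a monoacylglycerol acyltransferase, was at 20.8, 4.23 and 18.6 normalized CPM in the ND mice and at 0.976, 0.644 and 1.74 in the 40% HFD mice. It fell by 2.65 on the log2 scale (adjusted p = 0.019), and by 3.31 without ND replicate 2 (adjusted p = 0.024). It was no member of the fixed list of 25 genes of fatty acid uptake and triglyceride synthesis, in which 6 were lower DEGs, 1 was a higher DEG and 0 passed the adjusted p (median −0.48). The numbers without ND replicate 2 were 10, 1 and 0 (median −0.64). *Dgat2*, which adds the last acyl chain, was at 1806, 797 and 1874 against 282, 407 and 797 (adjusted p = 0.19). Of 16 adipocyte markers 6 were lower DEGs (median −0.97; −1.14 and 8 without ND replicate 2) and 0 passed the adjusted p. The lowest library in this list was 40% HFD replicate 1, with a mean log2 level of 8.10 against 9.48 and 9.63 in the other 40% HFD mice and 9.58 to 10.5 in the ND mice. *Pparg*, the master regulator of adipocytes, was at 159, 107 and 214 against 39.7, 89.0 and 106 (adjusted p = 0.10), and *Plin1*, which coats the lipid droplet, at 1136, 1197 and 2028 against 271, 878 and 982 (adjusted p = 0.26). *Lep*, the gene for leptin, which is known to follow fat mass, was at 4217, 809 and 1513 against 278, 714 and 1235, the highest value being that of an ND mouse. The fat expansion genes, which are known to rise as adipocytes grow, had a median of −1.09 over 11 genes with 3 lower DEGs and 1 higher DEG (−1.22, 5 and 0 without ND replicate 2). *Mest* was at 1315, 389 and 613 against 112, 611 and 766, and the groups overlapped. Lipolysis and lipid droplet genes (23, median −0.47) held 5 lower and 3 higher DEGs, of which *Cideb* rose, and without ND replicate 2 they held 6 and 2, with 1 fall, that of *Abhd5*, a coactivator of triglyceride lipase (adjusted p = 0.049; median −0.62). Adipokines (15, median −0.45) held 2 lower DEGs in both analyses (median −0.49 in the second). Insulin signalling genes (23, median −0.28) held 2 lower and 1 higher DEG (1 and 1, median −0.11). Adipocyte transcription factors (15, median −0.05) held 3 higher and 2 lower DEGs (1 and 1, median −0.14, without ND replicate 2). Thermogenic genes (16, median −0.16) held 3 in each direction and 2 rises, *Elovl3* and *Cpn2*. In the analysis without ND replicate 2 they held 3 higher and 5 lower DEGs, 1 rise (*Cpn2*) and the falls of *Dio2* and *Kcnk3* (adjusted p = 0.042 and 0.049; median −0.13).

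Among macrophage, lymphocyte and chemokine markers, 0 passed the adjusted p in limma. Of 21 macrophage markers 2 were DEGs, both higher, and 0 rose (median −0.23; 0 DEGs and −0.43 without ND replicate 2). *Adgre1*, the gene of F4/80, was at 164, 40.2 and 60.1 normalized CPM in the ND mice and at 48.0, 72.0 and 58.2 in the 40% HFD mice. Of 20 genes of lipid-associated macrophages 3 were lower DEGs (median −0.72; 6 and −0.95 without ND replicate 2), and the highest library was an ND mouse. ND replicate 1 had a mean log2 level of 6.95 in this list, against 4.69 and 4.78 in the other ND mice and 4.32 to 4.89 in the 40% HFD mice. In it *Mmp12*, a macrophage elastase, was at 207 (4.68 and 6.60 in the other ND mice) and *Gpnmb* at 275 (33.3 and 6.95). *Spp1*, which encodes osteopontin, was at 12.9, 4.62 and 0.950 against 2.78, 0.708 and 2.05, and *Ccl19* at 4.51, 19.2 and 1.15 against 0.826, 2.96 and 2.96 (adjusted p = 0.53 and 0.50). Of the 14 genes tested that the study names in eWAT, 3 were higher DEGs (*Acot3*, *Onecut1* and *Kap*) and 1 was a lower DEG (*Atp6v0d2*, led by ND replicate 1 at 103), and without ND replicate 2 these numbers were 3 and 0 (medians −0.11 and 0.18). The B cell gene *Ighm* was at 653, 230 and 678 against 73.6, 120 and 219 (adjusted p = 0.17). Markers of T and NK cells (15), B cells (12), dendritic cells (16), neutrophils and mast cells (8), chemokines (23), cytokines (19), lysosome (25), proliferation (22), progenitors (20), collagens (22), matrix remodelling (31), the unfolded protein response (20), hypoxia (18), mitochondrially encoded (13) and nuclear-encoded oxidative phosphorylation genes (51) had medians between −0.41 and 0.30, with at most 4 DEGs in each. Without ND replicate 2 the medians lay between −0.62 and 0.30, with at most 6 DEGs.

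**Figure D4:**
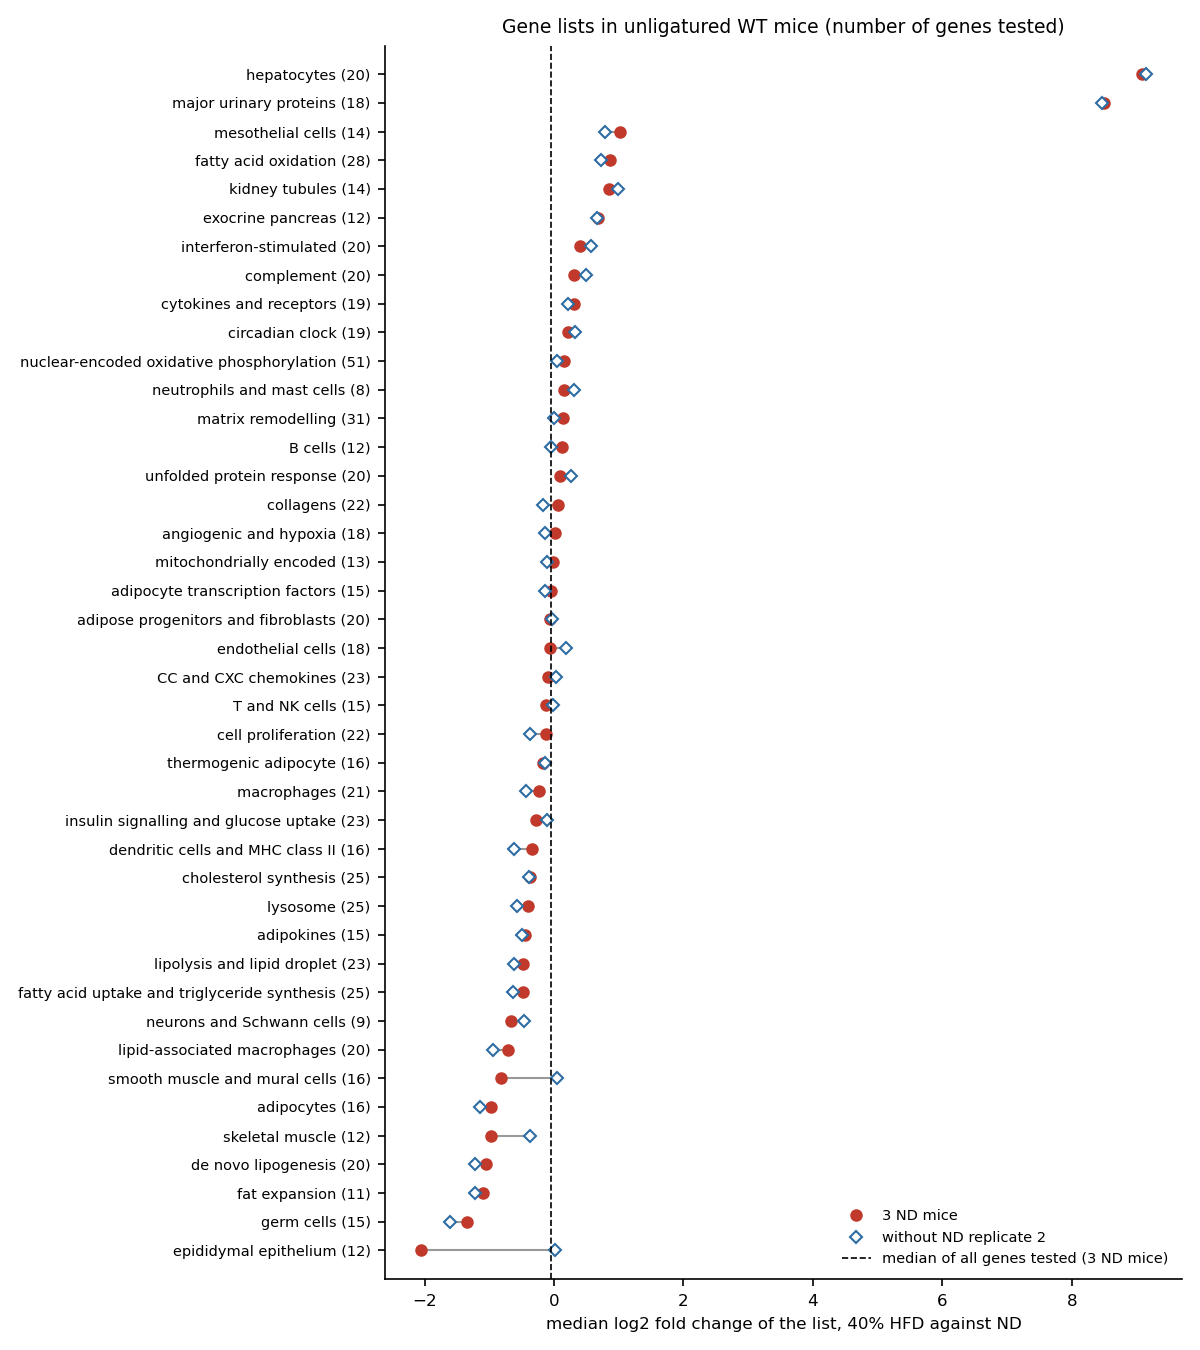
Median log2 fold change of each gene list other than the nasal, olfactory and study-named ones (horizontal axis), WT mice fed a 40% HFD against WT mice fed an ND, with all 6 mice (red circles) and without ND replicate 2 (open blue diamonds), and the number of genes tested beside each name. The hepatocyte and MUP lists stood at 9.08 and 8.50 and all others shown between −2.05 and 1.03, and the epididymal list moved to 0.01 without ND replicate 2.

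Some rises followed the liver genes less closely. Of the 416 genes that rose, 71 had an r of at most 0.8 with the hepatocyte list, and 24 of these an r below 0.5. The 24 had log2 fold changes of 0.60 to 1.92, and 14 of them rose also without ND replicate 2. In the ligatured WT mice described below, only 2 of the 24 had the same sign, with a median log2 fold change of −0.53. For 17 of the 24 the difference between the effects with and without ligature was past the adjusted p in limma. In CCL19-KI mice without ligature their median was −0.16. The genes named here, other than *Irf7*, were chosen after their values were seen. *Epha2*, a receptor tyrosine kinase, was at 6.52, 5.40 and 6.15 normalized CPM in the ND mice and at 23.1, 20.0 and 22.4 in the 40% HFD mice, 3.62-fold higher with little spread (adjusted p = 0.006; 0.027 without ND replicate 2). *Socs3*, the inhibitor of cytokine signalling, was at 4.78, 3.73 and 5.70 against 14.4, 12.8 and 9.17 (adjusted p = 0.009; 0.043 without ND replicate 2). *Zfp36l1*, which speeds the decay of AU-rich mRNAs, was at 60.7, 71.8 and 56.1 against 189, 120 and 130, and its relative *Zfp36* (r = 0.53) at 27.2, 25.2 and 25.5 against 78.8, 49.8 and 43.4. The Krüppel-like factors *Klf3*, *Klf10* and *Klf11* rose by 0.71, 0.76 and 0.80 on the log2 scale, with adjusted p of 0.038, 0.059 and 0.062 without ND replicate 2. *Rhou*, a small GTPase, rose by 1.47 (21.6, 25.8 and 25.7 against 99.1, 52.1 and 63.4). Without ND replicate 2 the adjusted p was 0.024 for *Rhou*, 0.028 for *Zfp36l1* and 0.049 for *Zfp36*.

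Of the 20 interferon-stimulated genes in the list 7 were DEGs, all higher, and 1 rose (median 0.40; 0.58 and 8 DEGs without ND replicate 2). *Irf7*, the regulator of type I interferon genes, was at 13.9, 19.6 and 16.0 against 50.3, 28.6 and 28.9, 2.17-fold higher (adjusted p = 0.023; 0.037 without ND replicate 2). *Ifitm3*, *Irgm2* and *Ifi47*, outside the list, rose by 1.03, 1.22 and 1.16 on the log2 scale, with adjusted p of 0.084, 0.055 and 0.069 without ND replicate 2. *Stat2* and *Bst2* were DEGs with an adjusted p of 0.067 and 0.069. Of 14 mesothelial genes 3 were higher DEGs (median 1.03). In the analysis without ND replicate 2 there were 2 (median 0.78). The mean log2 level of this list was 5.42 to 5.55 in the ND mice and 6.20 to 6.75 in the 40% HFD mice. *Wt1* was at 19.5, 15.7 and 22.6 against 36.2, 55.2 and 34.3 (adjusted p = 0.25). Its keratin genes *Krt8* and *Krt18* were high in ND replicate 2, at 90.5 and 125, and *Krt8* rose without that mouse (adjusted p = 0.049). Of 19 circadian genes 4 were higher DEGs and 1 was a lower DEG (median 0.22; 5, 1 and 0.32 without ND replicate 2). Endothelial genes (18, median −0.07) held 3 higher DEGs and 1 lower DEG in both analyses (median 0.19 without ND replicate 2). Among them *Kdr*, the VEGF receptor, was at 36.1, 40.0 and 28.4 against 58.5, 74.2 and 91.9 (adjusted p = 0.071).

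The remaining named falls are given one by one. *Unc5a*, a netrin receptor, was at 34.7, 24.5 and 30.2 normalized CPM in the ND mice and at 4.51, 8.24 and 11.2 in the 40% HFD mice, 3.73-fold lower (adjusted p = 0.039; 0.067 without ND replicate 2). *Adra1d*, an adrenergic receptor, was at 4.57, 3.62 and 4.80 against 0.676, 1.54 and 1.44 (adjusted p = 0.010; 0.028 without ND replicate 2). *Ebf3*, a transcription factor of the early B cell factor family, was at 13.4, 21.5 and 18.8 against 3.00, 7.34 and 7.66 (adjusted p = 0.018; 0.068 without ND replicate 2). *Ntsr2*, *Bsn* and *Unc80*, a neurotensin receptor, a presynaptic scaffold and a channel subunit, fell as well, with the highest value in ND replicate 2 (22.9, 13.1 and 5.01) and adjusted p of 0.044, 0.11 and 0.13 without it. *Hspb7*, *Cadps*, *Fam69b*, *Fam217b* and *Bpifb6* complete the named falls, at −1.83, −1.36, −1.41, −1.36 and −2.24, with adjusted p of 0.11, 0.084, 0.10, 0.031 and 0.024 without ND replicate 2.

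The same diet contrast in ligatured WT mice rests on 6 other mice. There, 589 genes were higher DEGs (3.30% of 17852 tested in the fit of all 36 libraries) and 610 were lower DEGs (3.42%), 18 rose (0.101%) and 19 fell (0.106%). Of the 416 genes that rose without ligature, 330 had the same sign with ligature, with a median log2 fold change of 0.33 in place of 5.06. Most of these followed the hepatocyte list. Of the 345 rises with an r above 0.8, 300 had the same sign (median 0.36), and of the 71 others 30 did (median −0.09). Of the 35 genes that fell, 6 had the same sign. The difference between both effects was tested directly, and was past the adjusted p for 438 genes, 237 with the higher effect in ligatured mice (1.33%) and 201 with the lower (1.13%). This number was 5 without ligatured WT ND replicate 1 or without 40% HFD replicate 1, 922 without ND replicate 2, and 0 in a fit of only the 4 groups. *Alb* had log2 fold changes of 10.31 without and −0.01 with ligature (adjusted p of the difference 0.046). *Scd2* had −2.68 and 0.64 (0.047), *Nsdhl* −1.75 and 0.59 (0.022) and *Mogat2* −2.65 and 1.44 (0.004). *Epha2* had 1.70 and −0.71 (0.004). The fat expansion genes had medians of −1.09 and 1.05. *Mest* was at 28.1, 51.3 and 38.8 in ligatured ND mice and at 1081, 301 and 318 in ligatured 40% HFD mice, a rise of 3.58 (adjusted p = 0.024), against −0.86 without ligature (adjusted p of the difference 0.026). *Sfrp5*, a Wnt inhibitor of growing adipocytes, had −1.16 and 4.51 (0.007). *Cadps*, a gene of vesicle release, was the 1 gene past the adjusted p in both sets of mice and lay on opposite sides, −1.36 and 1.90.

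**Figure D5:**
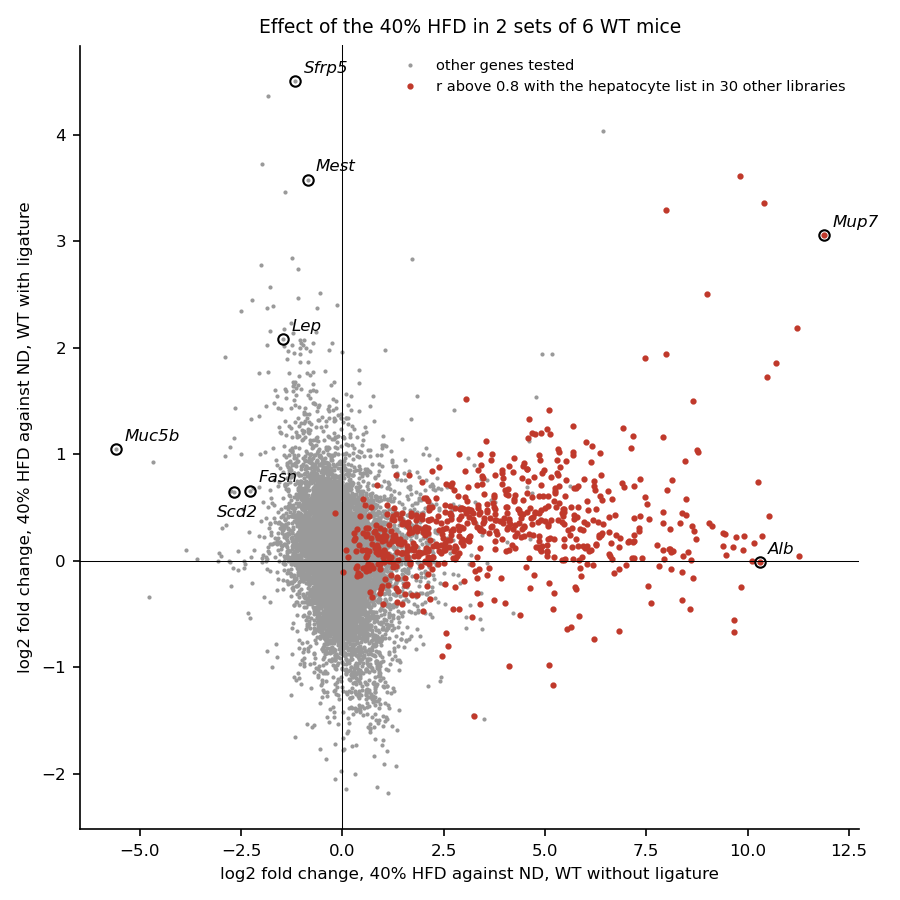
Log2 fold change of the 40% HFD against the ND in WT mice without ligature (horizontal axis) and with ligature (vertical axis), a point per gene tested, with genes that had an r above 0.8 with the hepatocyte list in red and 8 genes circled. The red points spread to 11.88 on the horizontal axis (*Mup7*, at 3.06 on the vertical) and *Alb* is at 10.31 and −0.01, while *Mest* and *Sfrp5* are at 3.58 and 4.51 on the vertical axis.

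In CCL19-KI mice without ligature, the 40% HFD gave 424 higher DEGs (2.51%) and 199 lower DEGs (1.18%), and 0 genes passed the adjusted p in limma, with 930 at an unadjusted p of at most 0.05, 0 by edgeR and 19 by DESeq2. The hepatocyte list had a median of 0.98 there, and the lipogenesis list of 0.74. The difference from the WT effect was past the adjusted p for 4 genes (0.0236%), *Mup7*, *Bpifa1*, *Reg3g* and *Muc5ac*. The latter 3 passed the filter on low values only through the WT ND mice. Without ND replicate 2 they were not tested, *Mup7* was not past the adjusted p, and the number was 0. *Fasn* had log2 fold changes of −2.28 in WT and 1.98 in CCL19-KI mice, and *Irf7* of 1.04 and −0.42, with an adjusted p of the difference of 0.17 for each.

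The 60% HFD group without ligature shares the ND mice with the comparison here, and its values against them are given side by side only. Against the ND, 365 genes rose (2.16%) and 15 fell (0.0886%) under the 60% HFD, and the hepatocyte list had a median of 8.79. *Muc5b* fell there by 5.53 and *Bpifa1* by 4.72, and neither would have passed the filter on low values without the ND mice. The lipogenesis list had a median of −0.22 in place of −1.06, *Scd2* −0.72 in place of −2.68 and *Nsdhl* −0.61 in place of −1.75, while *Epha2* had 1.05 and *Irf7* 0.67. *Socs3* was at 5.22 to 5.83 normalized CPM in the 60% HFD mice, overlapping the ND mice and below every 40% HFD mouse. The direct comparison of both HFD groups needs no ND mice. There were 300 higher DEGs (1.77%) and 101 lower DEGs (0.597%) in the 60% HFD group, and 0 genes passed the adjusted p in limma, with 582 at an unadjusted p of at most 0.05, 0 by edgeR and 33 by DESeq2. Across the groups of WT mice without ligature, *Nsdhl* was highest on the ND (48.3 to 72.7), then on the 60% HFD (31.0 to 48.3), and lowest on the 40% HFD (12.2 to 23.7), the neighbouring ranges of the ND and the 60% HFD meeting at 48.3. In ligatured WT mice fed an ND it was at 9.12 to 14.9, below every mouse of the unligatured ND group.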

How the data were processed

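Epididymal white adipose tissue of mice was sequenced by the authors after rRNA depletion with a directional library kit. Per the labels and the study's methods, Trimmomatic 0.38, RSEM 1.3.0 with Bowtie2, and edgeR were used. The methods name the mouse build mm10 and the submitters' processing notes GRCm39, so coordinates are given only for promoters, from RefSeq (GRCm38.p6). The values deposited by the authors are a normalized signal, CPM after edgeR scaling, for 24750 genes in 36 libraries. Of these genes, 24626 had a symbol. All values of the 6 libraries (100%) came out as whole reads (tolerance 0.01), and the recovered reads, 14693883 to 19786434 per library, were used for the count tests and the precision given (counting error only).

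Groups came from the labels. log2(normalized CPM + 1) was fitted with limma 3.58.1 in R 4.3.3 over the 18 libraries without ligature (all 36 for the ligature contrast), for genes that reached 1 normalized CPM in 3 or more libraries, and p-values were adjusted after Benjamini and Hochberg. The alternatives were other pseudocounts, filters, scalings, weights and samples, edgeR 4.0.16 and DESeq2 1.42.0. The code was tested on simulated data.

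The libraries and gene lists were chosen with earlier results of these data known. The rule for names took the 15 largest rises and falls among genes past the adjusted p with groups that did not overlap and DEGs without ND replicate 2, the genes the study names, and 2 to 4 members of each list by p or level. The other genes named, the lists of nasal and olfactory genes and the correlation with the hepatocyte list were chosen after their values were seen. Some genes of the lists are counted with them but are not reported here by name. All pairs of libraries differed by more than counting noise.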

Additional observations from a re-analysis of the deposited data

Results flagged for a closer look

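The effect of the 40% HFD differed between ligatured and unligatured WT mice for 438 genes in limma (adjusted p of the difference below 0.05). The values that follow are log2 fold changes with ligature minus those without. Liver genes had the lowest differences: *Apob* −11.23, *Alb* −10.32, *Cyp3a11* −10.22, *Serpina1e* −10.12, *Serpina1c* −10.10, *Mat1a* −10.10, *Mug1* −9.99 and *Serpina3k* −9.20. The MUP genes were at −10.08 (*Mup20*), −9.80 (*Mup3*), −9.51 (*Mup22*), −8.86 (*Mup11*), −8.83 (*Mup7*) and −8.75 (*Mup14*). These rest on ND mice whose hepatocyte list was at 1.64 to 1.73 without ligature and at 6.26 to 9.04 with it.

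The sign of a difference follows in part from the change without ligature, which is subtracted. The named genes past the adjusted p of the difference that were lower on the 40% HFD without ligature had positive differences. They were 6.64 for *Muc5b*, 3.58 for *Bpifb6*, 3.85 for *Ttn* and 1.38 for *Kcnj8*. In lipid and sterol metabolism they were 4.09 for *Mogat2*, 3.33 for *Scd2*, 2.34 for *Nsdhl* and 1.48 for *Mvk*. For *Hspb7*, *Cadps*, *Ighm*, *Ntsr2*, *Unc5a*, *Zfp423*, *Ebf3*, *Fam69b* and *Adra1d* they were 3.60, 3.26, 3.35, 2.95, 2.34, 2.03, 1.83, 1.81 and 1.57. *Dpp4* had −1.49.

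Between CCL19-KI and WT mice, 4 genes differed, and 0 without ND replicate 2, where *Bpifa1*, *Reg3g* and *Muc5ac* were not tested. *Mup7* had a difference of −10.57 (CCL19-KI minus WT).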

How the results depend on the processing

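The number of genes past the adjusted p (451 in all) was 196 with a pseudocount of 5, 1338 by DESeq2, 1077 in a fit of all 36 libraries, 4370 with sample quality weights, whose estimation did not converge in some fits, and 1 with the hepatocyte level as a covariate. It ranged from 91 to 831 with 1 library left out. DEGs (2238) numbered 3429, 1177 and 1350 with weights, the covariate and a ratio of 2, and 1184 to 3083 with 1 library left out. The number of genes whose effect differed with ligature (438) was 737 with a pseudocount of 0.1, 185 without a filter, 282 after quantile normalization, 1603 with weights, 770 by edgeR and 1879 by DESeq2. It was 0 in a fit of only the 4 groups and 0 with the covariate, 1334 without ND replicate 2 and CCL19-KI 60% HFD replicate 3, 803 without ND replicate 2 and 40% HFD replicate 2, and 5 to 958 with 1 library left out. The number that differed between CCL19-KI and WT mice (4) was 12 and 1 with pseudocounts of 0.1 and 5, 2 without a filter, 0 with a mean of at least 5, 6796 with weights, 296 by edgeR, 1139 by DESeq2, 441 in all 36 libraries and 0 in only the 4 groups, with the covariate and without either pair of libraries. It ranged from 0 to 1943 with 1 library left out, the highest without CCL19-KI ND replicate 1. Between the 60% and 40% HFD the number (0) was 2513 with weights, 33 by DESeq2, 1 with the covariate and 0 with each library left out. The cause of these changes was not tested. With the covariate the sign turned for 11 genes named by the rule and past the adjusted p. Among them were *Mat1a* (−1.34), *Unc5a* (0.20), *Acot3* (−0.94), *Cideb* (−1.80), *Cpn2* (−0.98), *Elovl3* (−0.69), *Prox1* (−2.08), *Arg1* (−2.20) and *Cfi* (−0.21). List medians turned as well, for de novo lipogenesis (0.46), adipocytes (0.65), fat expansion (1.41), lipolysis (0.37) and fatty acid oxidation (−0.94). Those of cholesterol synthesis (−0.14) and lipid-associated macrophages (−0.57) kept their sign. The covariate separates both groups completely, so that it takes up the diet contrast. Of the 43 genes named by the rule that were past the adjusted p, 0 were past it in every one of the 22 settings in which they were tested, and 16 in every one of the 21 other than the covariate. Alternatives with the covariate or with 2 libraries left out were chosen after seeing the data.

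With the replicate number as a block, 420 genes passed the adjusted p, 2193 were DEGs, 356 differed with ligature, 3 between genotypes, and 0 between the HFDs. The numbers were not taken to pair the mice, since same-numbered mice of both groups deviated with r of 0.075, 0.27 and 0.14, and ND replicate 1 correlated best with 40% HFD replicate 3 (0.26).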

Other observations

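CCL19-KI 60% HFD replicate 3 without ligature, a library outside the comparison, held 0.687 normalized CPM of *Ccl19* and 0 of *Gm2564*, against 5.57 to 34.6 and 11.6 to 107.9 in the other 17 CCL19-KI libraries. Its *Crisp1* was at 9541 and its *Alb* at 6.38. The other CCL19-KI libraries with *Alb* below 20 were ligatured ND replicates 2 and 3, with *Bpifa1* at 81.7 and 52.6 and *Muc5b* at 33.5 and 51.1.

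*Nsdhl* was higher in the 3 WT ND mice without ligature (48.3 to 72.7) than in ligatured WT ND mice (9.12 to 14.9) and in CCL19-KI ND mice without (5.99 to 17.8) and with ligature (13.7 to 14.3). *Mest* likewise was at 389 to 1315 in WT ND mice without ligature and at 28.1 to 51.3 in those with it.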
